A study of Mus musculus with 21 samples.

Results

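The synaptic vesicle release machinery was followed as 36 genes, chosen by symbol, out of 24498 genes counted in mouse hippocampus after ethanol. The genes encode SNARE proteins, synaptotagmins, synapsins, active zone scaffolds and other vesicle proteins. The mice were males aged to 8 weeks, and ethanol was given into the peritoneum at 2 g/kg, from a saline solution of 20%. In the knockdown arm an AAV2/9 vector carried a short hairpin RNA against Acss2 behind a U6 promoter and EGFP behind a CMV promoter. The sample protocol places this vector in the dorsal hippocampus by stereotaxic injection, whereas the design text of the series seems to describe a systemic route. A vector for the control arm, the time between ethanol and dissection, and whether replicates were separate animals were not given in the sources used here. All groups compared below received ethanol, so the effect of ethanol itself was not measured by them.

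Libraries with over 1000000 gene-assigned reads numbered 3 in dorsal control, 4 in dorsal knockdown, 4 in ventral control and 3 in ventral knockdown. A further library, labelled knockdown of total hippocampus, had no replicate and entered no test between arms or regions. These 15 libraries held 2819837 to 13240179 gene reads, of which the 36 genes took 1.49% to 2.46%. The row Rn45s, the 45S precursor of ribosomal RNA, took from 0.625% to 20.7% of gene reads. With 5021 gene reads in dorsal knockdown 5 and 8744 in ventral knockdown 1, these ethanol libraries were left out. The 4 untreated dorsal libraries held 4279 to 221847 gene reads, with 98.6% to 99.0% of their uniquely aligned reads in no gene and only 22 to 3423 reads in the 36 genes, and were also left out. Acss2, the targeted gene that encodes an acetyl-CoA synthetase, stood at 52.9, 58.6 and 52.7 CPM in dorsal control 1 to 3 and at 44.1, 40.7, 18.0 and 19.2 CPM in dorsal knockdown 1 to 4. In ventral hippocampus Acss2 stood at 50.1, 54.1, 47.4 and 48.0 CPM in control 1 to 4 and at 28.8, 63.4 and 36.6 CPM in knockdown 2 to 4. The lower dorsal level was not called (log2 fold change -0.84, SE 0.32, edgeR adjusted p = 0.964), and ventral knockdown 3 lay above every ventral control. In the library labelled knockdown of total hippocampus Acss2 stood at 57.9 CPM, near the top of the range of all controls, 47.4 to 58.6 CPM, so its level there went against the label. Markers of neurons, dentate granule cells, CA1, CA3 and interneurons were present in all 15 libraries, with 0 of their markers at 0.

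At a nerve terminal, vesicles filled with transmitter dock at the active zone, are primed, and fuse when calcium enters. Fusion is driven by SNARE proteins of the vesicle and the plasma membrane, which zip together and are afterwards pulled apart by the ATPase NSF. Synaptotagmins sense the calcium, complexins hold and release the assembled SNAREs, Munc13 proteins prime, RIM, Bassoon and Piccolo build the release site, and endocytosis recovers the membrane. The hippocampus is rich in such terminals, most of them glutamatergic.

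All 36 genes were expressed and all passed the filter on low counts. Levels are given as reads per 1000000 gene reads (CPM) after TMM scaling, and, to compare genes, as CPM per kb of the longest annotated transcript. Because the tissue was sequenced in bulk, fewer cells of a type and less RNA per cell cannot be told apart.

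Among the SNARE genes the vesicle SNARE Vamp2, also called synaptobrevin 2, was highest at 460.4 CPM per kb (range 319.7 to 556). The plasma membrane SNARE Snap25 followed at 453 CPM per kb (range 291 to 974), so the ranges of these neighbours overlapped. The ATPase Nsf stood at 271, its adaptor Napb (beta-SNAP) at 99.9, the plasma membrane SNARE Stx1a at 55.5 and the second synaptobrevin Vamp1 at 23.6 CPM per kb. Vamp2 was also among the steadiest genes over libraries. Its level was 1044, 1011 and 1088 CPM in the dorsal controls, 1118, 1086, 886 and 964 in dorsal knockdown 1 to 4, 1211, 1043, 816 and 705 in the ventral controls and 1106, 1225 and 973 in ventral knockdown 2 to 4. The lowest value belonged to ventral control 4 and the highest to ventral knockdown 3, and all 4 groups overlapped.

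Among the calcium sensors Syt1, the sensor of fast synchronous release, was highest at 291 CPM per kb (range 162 to 469). It stood at 1557, 1352 and 1522 CPM in the dorsal controls, 1621, 1217, 779 and 1196 in dorsal knockdown, 2259, 1238, 1116 and 1049 in the ventral controls and 1879, 1508 and 1315 in ventral knockdown. Ventral control 1 held the highest of these values and the groups overlapped. Syt11, a synaptotagmin that does not bind calcium, followed at 165 CPM per kb and varied least of all 36 genes over the 15 libraries, by 1.37-fold from lowest to highest. Syt5, Syt7, Syt4 and the C2-domain protein Doc2b lay between 23.1 and 70.6 CPM per kb. Syt2, another fast sensor, was far below them at 2.57 CPM per kb (range 0.526 to 8.67).

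Among priming and vesicle-tethering genes Rab3a, the small GTPase of synaptic vesicles, was highest at 331 CPM per kb (range 211 to 524). The complexins Cplx2 and Cplx1 stood at 282 and 268, the Rab3 effector Rph3a (rabphilin) at 88.8, and the Munc13 genes Unc13a and Unc13b at 40.7 and 4.35 CPM per kb. Per kb, active zone scaffold genes were lower as a group. Bsn (Bassoon) had a mean of 37.9 CPM per kb (range 9.83 to 85.7), followed by Erc2 at 31.3, Pclo (Piccolo) at 24.4, and Rims2, Rims1 and Rims3 at 20.6, 12.7 and 2.31 CPM per kb. This order depends on the length used, which was 15.94 kb for Bsn and 20.08 kb for Pclo. As plain CPM Bsn averaged 603 and Pclo 490.5, against 516 for Rab3a.

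Of the vesicle membrane genes Syp (synaptophysin) stood at 445 CPM per kb (range 315 to 637) and the glutamate transporter Slc17a7 (VGLUT1) at 438 CPM per kb (range 288 to 766), again with overlapping ranges. Syp measured 1515, 1184 and 1452 CPM in the dorsal controls, 1572, 1265, 1094 and 1240 in dorsal knockdown, 895, 1212, 1198 and 965 in the ventral controls and 1122, 1811 and 1276 in ventral knockdown. The ventral controls were the lowest group for Syp but overlapped each of the others. The synapsins Syn1 and Syn2, which cluster vesicles in reserve, were near each other at 195 and 185 CPM per kb, and Syn3 was at 9.33. Among the SV2 glycoproteins Sv2a and Sv2b stood at 89.2 and 72.4, and Sv2c was the lowest of the 36 genes at 1.50 CPM per kb.

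For endocytosis, Dnm1 (dynamin 1), the GTPase that cuts vesicles from the membrane, stood at 292 CPM per kb (range 192 to 385). Its levels were 1774, 1123 and 1407 CPM in the dorsal controls, 1759, 1123, 886 and 1363 in dorsal knockdown, 1326, 1106, 1475 and 932 in the ventral controls and 1459, 1762 and 1300 in ventral knockdown, with overlap between all groups. The dynamin partner Amph (amphiphysin) and the phosphatase Synj1 (synaptojanin 1) were close to each other at 72.3 and 71.8 CPM per kb. From lowest to highest library the 36 genes varied by a median of 2.66-fold, against 2.83-fold over all 14578 tested genes and 2.33-fold over the 4436 tested genes that average 50 CPM or more. The widest ranges belonged to low genes, Sv2c at 23.2-fold and Rims3 and Syt2 at 16.5-fold each, and Bsn reached 8.72-fold.

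**Figure D1:**
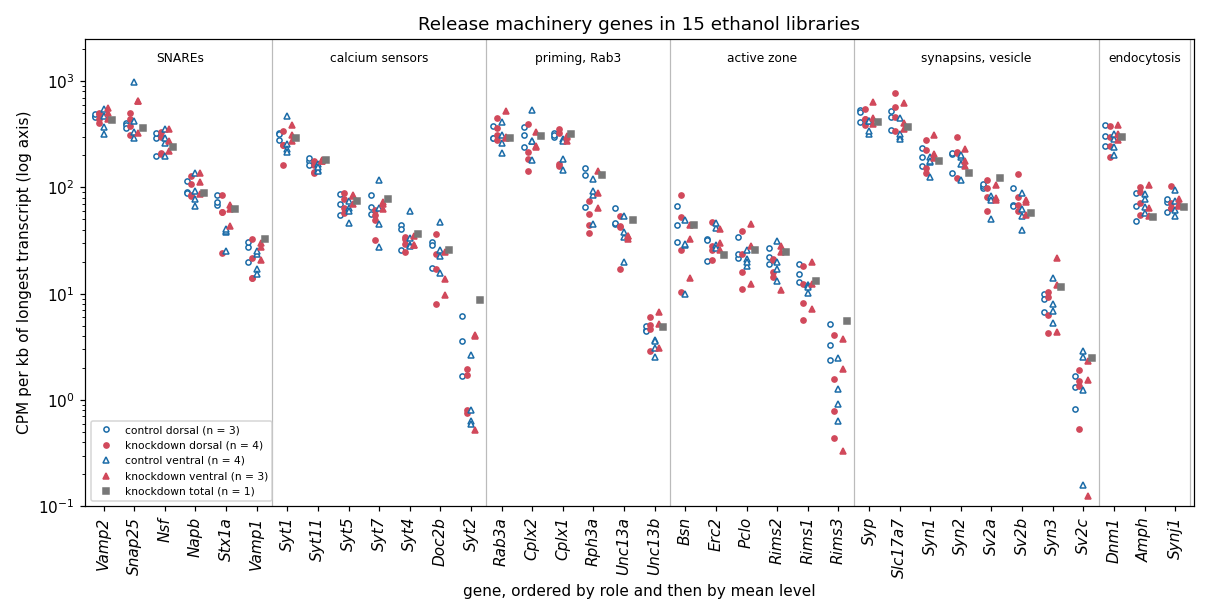
Level of each of the 36 genes in CPM per kb of longest transcript (log axis), 1 point per library, in blocks by role and ordered by mean level within a block; colour and filling give the vector arm and shape the region. Vamp2, Snap25, Syp and Slc17a7 stand highest, with means of 460 to 438 CPM per kb, and Sv2c, Rims3 and Syt2 stand lowest and spread most between libraries.

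Exons of 8 of the 36 genes overlap a gene on the opposite strand in the annotation: Doc2b, Rab3a, Sv2b, Syn1, Syn2, Syn3, Synj1 and Unc13a. The library kit marks strand, but the strand setting used in counting was not given in the sources used here. Depending on it, the values of these 8 genes may hold reads of the partner gene or lack reads set aside as ambiguous.

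In dorsal hippocampus no gene of the release machinery was called between knockdown and control after ethanol. Of the 36 genes 23 were lower and 13 higher in knockdown by point estimate, with a median log2 fold change of -0.16 against 0.03 over all 14578 tested genes. By edgeR's quasi-likelihood test 0 of all tested genes (0%) were called, and 667 (4.58%) had an unadjusted p under 0.05, as did 2 of the 36. DESeq2 called 6 of all genes and 0 of the 36. The groups overlapped for each of the 36 genes, while they did not for 7.02% of all tested genes.

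The lowest estimates were of a calcium sensor, a Rab3 effector and a RIM protein. Syt2 stood at 24.4, 42.8 and 11.5 CPM in dorsal control 1 to 3 and at 13.3, 5.51, 5.22 and 11.9 CPM in dorsal knockdown 1 to 4, a log2 fold change of -1.55 (SE 0.67, edgeR unadjusted p = 0.0361, adjusted p = 0.999). The lowest Syt2 control lay within the range of the knockdown libraries. Rph3a stood at 639, 548 and 270.1 CPM in control and 235, 155, 186 and 308 CPM in knockdown, a log2 fold change of -1.13 (SE 0.38, edgeR unadjusted p = 0.009, adjusted p = 0.954). Dorsal control 3 was the low Rph3a control, and only it overlapped the knockdown libraries. Rims3 stood at 21.3, 33.8 and 15.5 CPM in control and 10.2, 5.13, 2.83 and 26.6 CPM in knockdown, a log2 fold change of -1.09 (SE 0.74, edgeR adjusted p = 0.999), and dorsal knockdown 4 lay among the controls.

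The highest dorsal estimates were small. Slc17a7 stood at 1618, 1064 and 1420 CPM in control and 2360, 1045, 1414 and 1767 CPM in knockdown, a log2 fold change of 0.27 (SE 0.30, edgeR adjusted p = 0.999). Amph stood at 297, 162 and 226 CPM in control and 337, 242, 186 and 307 CPM in knockdown, a log2 fold change of 0.23 (SE 0.29). Syn2 stood at 794, 529 and 816 CPM in control and 1149, 816, 473 and 830.0 CPM in knockdown, a log2 fold change of 0.20 (SE 0.30). Dorsal knockdown 1 held the highest value for each of these 3 genes, and the groups overlapped.

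By role, 4 of 6 SNARE genes, 6 of 7 calcium sensors, 4 of 6 priming genes and 5 of 6 active zone genes were lower in dorsal knockdown by point estimate, against 3 of 8 vesicle membrane genes and 1 of 3 endocytosis genes. Of 56 other release and recycling genes, 34 were lower and 0 were called (median -0.10). The 10 general neuron markers had a median of -0.15, with 7 lower, and their summed level ranged from 3939 to 6313 CPM in dorsal knockdown and from 5784 to 6115 CPM in dorsal control. Thalamus markers, which can enter a dissection, were lower in 6 of 8 genes (median -0.31), summing to 46.6 to 69.95 CPM in knockdown and 58.8 to 113.9 CPM in control. CA1 markers were lower in 4 of 5 genes (median -0.59), summing to 398 to 608 CPM in knockdown and 687 to 861 CPM in control, with no overlap. Microglia markers were higher in 6 of 6 genes (median 0.70), summing to 312 to 733 CPM in knockdown and 203 to 287.5 CPM in control, also with no overlap. Dentate granule markers were lower in 5 of 6 genes (median -0.65) and oligodendrocyte markers higher in 6 of 6 (median 0.15), both with overlapping sums. CA3 markers, Lyz2 among them, were higher in 4 of 5 genes (median 0.61), summing to 203 to 352 CPM in knockdown and 79.8 to 285 CPM in control. Astrocyte markers were lower in 4 of 6 genes (median -0.12), and their highest sum, 5514 CPM, was that of dorsal knockdown 3. None of the markers in these lists was at 0. The part of these markers in the member values was not tested. Dorsal knockdown 3 held the lowest neuron sum, 3939 CPM, and the highest microglia sum of these libraries, 733 CPM. Without it the member median was -0.12, without dorsal control 1 it was -0.04, without dorsal knockdown 2 it was -0.08, and without dorsal knockdown 1 it was -0.26.

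In ventral hippocampus the point estimates lay on the other side. Of the 36 genes 30 were higher and 6 lower in knockdown, with a median log2 fold change of 0.21 against -0.01 over all tested genes, and 0 were called. Over all genes edgeR called 0 (0%), 593 genes (4.07%) fell under 0.05 before adjustment, and DESeq2 called 34, none of them among the 36. With the shallow and untreated libraries included, 12 of the 36 genes were lower and the median was 0.12.

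For 2 of the 36 genes, 5.56%, the ventral groups did not overlap, against 2.68% of all tested genes. Both were higher in knockdown, as were 1.05% of all tested genes without overlap. Stx1a stood at 82.8, 84.2, 88.8 and 55.1 CPM in ventral control 1 to 4 and at 92.98, 136 and 149 CPM in ventral knockdown 2 to 4, a log2 fold change of 0.70 (SE 0.32, edgeR unadjusted p = 0.0492, adjusted p = 1.00). Syt11 stood at 730.0, 841, 715 and 786 CPM in control and 907, 899 and 891 CPM in knockdown, a log2 fold change of 0.23 (SE 0.18, edgeR adjusted p = 1.00).

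Other high estimates overlapped between groups. Syt2 stood at 4.33, 18.1, 4.05 and 5.59 CPM in control and 28.1, 3.62 and 27.2 CPM in knockdown, a log2 fold change of 1.34 (SE 0.68, edgeR adjusted p = 1.00). Ventral control 2 exceeded the other ventral controls, and ventral knockdown 3 lay below all of them. Unc13b, the gene of Munc13-2, stood at 37.3, 53.5, 45.5 and 52.5 CPM in control and 75.9, 45.9 and 99.2 CPM in knockdown, a log2 fold change of 0.64 (SE 0.27, edgeR unadjusted p = 0.0316, adjusted p = 1.00).

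Among the low estimates Doc2b stood at 113, 68.6, 205 and 98.8 CPM in ventral control and 60.3, 108 and 42.2 CPM in ventral knockdown, a log2 fold change of -0.79 (SE 0.48, edgeR adjusted p = 1.00). Ventral control 3 was the highest control for Doc2b, and the groups overlapped. Sv2c stood at 1.44, 23.2, 26.4 and 11.3 CPM in control and 21.3, 1.14 and 13.9 CPM in knockdown, a log2 fold change of -0.37 (SE 0.80). Syt4 stood at 236, 131, 112 and 109 CPM in control and 112, 113 and 135 CPM in knockdown, a log2 fold change of -0.29 (SE 0.28). Both signs turned when 1 library was left out, to 0.18 for Sv2c without ventral knockdown 3 and to 0.03 for Syt4 without ventral control 1.

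All 6 SNARE genes, all 3 endocytosis genes and 7 of 8 vesicle membrane genes were higher in ventral knockdown by point estimate. Of the 56 other release genes 32 were higher and 0 were called (median 0.10). The general neuron markers were higher in 9 of 10 genes (median 0.24), summing to 5127 to 6573 CPM in knockdown and 4086 to 6264 CPM in control. CA1 markers were higher in 5 of 5 genes (median 1.14), summing to 534.8 to 1082 CPM in knockdown and 125 to 355 CPM in control, with no overlap. Choroid plexus markers summed to 15170 CPM in ventral control 4, against at most 608 CPM in the other 14 libraries, and that library had the lowest level of 10 of the 36 genes. Dentate granule markers were lower in 6 of 6 genes (median -0.83) and oligodendrocyte markers in 6 of 6 (median -0.35), and microglia markers were higher in 6 of 6 (median 0.15), with overlapping sums in each list. The ventral member median was 0.16 without ventral control 4, 0.12 without ventral knockdown 2 and 0.35 without ventral control 1. The part of these marker lists in the member values was not tested.

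The knockdown effect differed between regions by a median log2 value of -0.38 over the 36 genes (dorsal minus ventral), with 29 of 36 below 0, against 0.05 over all tested genes. None was called: edgeR called 0 of all genes (0%), 672 (4.61%) fell under 0.05 before adjustment, and DESeq2 called 7 genes, with 0 of the 36. The members with an unadjusted p under 0.05 were Syt2 at -2.89 (SE 0.96, edgeR unadjusted p = 0.00884, adjusted p = 0.998), Rph3a at -1.33 (SE 0.53, edgeR unadjusted p = 0.0247, adjusted p = 0.998) and Stx1a at -1.10 (SE 0.46, edgeR unadjusted p = 0.031, adjusted p = 0.998). The highest values were Doc2b at 0.52 (SE 0.67), Sv2c at 0.42 (SE 1.14) and Erc2 at 0.28 (SE 0.43). Averaged over both regions, the effects left 21 genes higher and 15 lower with a median of 0.04 and 0 called, where 577 of all genes (3.96%) fell under 0.05 before adjustment and DESeq2 called 3 genes. The lowest of these averages were Doc2b at -0.53 (SE 0.33), Rph3a at -0.47 (SE 0.27) and Cplx2 at -0.30 (SE 0.27), and the highest were Slc17a7 at 0.35 (SE 0.21), Unc13b at 0.33 (SE 0.19) and Syn1 at 0.26 (SE 0.20). Cplx2 stood at 1820, 1196 and 1523 CPM in dorsal control, 1940, 911, 704 and 1056 in dorsal knockdown, 885, 1335, 2622 and 1352 in ventral control and 1213, 1621 and 1171 in ventral knockdown. Syn1 stood at 762, 517 and 630.0 CPM in dorsal control, 903, 499, 449 and 727 in dorsal knockdown, 629.6, 567, 582 and 404 in ventral control and 1014, 671 and 618 in ventral knockdown. For both genes the groups overlapped within each region. Slc17a7 stood at 924, 984, 1396 and 888 CPM in ventral control and 1089, 1902 and 1234 CPM in ventral knockdown, and Rph3a at 189, 351, 494 and 387 CPM in ventral control. All of these comparisons share the same 4 groups of libraries and are not independent of each other.

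Between regions of the control arm, 26 of the 36 genes had the higher level in dorsal hippocampus, with a median log2 difference of 0.21 against -0.06 over all tested genes. None was called by edgeR, which called 0 of all genes (0%) with 813 (5.58%) at an unadjusted p under 0.05. DESeq2 called 12 of all genes and 0 of the 36. Dorsal and ventral controls did not overlap for 5 of the 36 genes (13.9%), against 9.27% of all tested genes, and all 5 were higher in dorsal hippocampus, as were 5.54% of all tested genes without overlap: Stx1a, Cplx1, Unc13b, Rims1 and Sv2a.

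Stx1a stood at 148, 183 and 157 CPM in the dorsal controls against the 82.8, 84.2, 88.8 and 55.1 CPM of the ventral controls already given. The means were 163 ± 17.9 CPM (SD, n = 3) and 77.7 ± 15.3 CPM (SD, n = 4), a log2 difference of 1.07 (SE 0.33, edgeR unadjusted p = 0.00524, adjusted p = 0.731). Every dorsal control lay well above every ventral control, and yet the difference did not pass adjustment over all genes. Cplx1, a complexin, stood at 649, 704 and 679 CPM in dorsal and 626, 602, 405 and 322 CPM in ventral controls, a log2 difference of 0.47 (SE 0.31). Unc13b stood at 67.1, 72.5 and 65.1 CPM in dorsal and 37.3, 53.5, 45.5 and 52.5 CPM in ventral controls, a log2 difference of 0.53 (SE 0.27). For Rims1, a scaffold that tethers Rab3 vesicles, the levels were 123, 98.4 and 83.9 CPM in dorsal and 78.4, 65.03, 77.9 and 75.2 CPM in ventral controls, a log2 difference of 0.45 (SE 0.36).

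Sv2a, the target of the drug levetiracetam, stood at 424, 445 and 472 CPM in dorsal and 220.3, 344, 359.6 and 331 CPM in ventral controls, a log2 difference of 0.51 (SE 0.25). Larger estimates with overlap came from Syt2, at 1.76 (SE 0.68), and from Rims3, whose ventral control levels were 4.15, 16.1, 5.97 and 8.22 CPM, a log2 difference of 1.48 (SE 0.75). At the other end, Sv2c stood at 12, 15.3 and 7.56 CPM in the dorsal controls, a log2 difference of -0.43 (SE 0.81) from the ventral values already given. For Snap25 and Erc2 the differences were -0.40 (SE 0.39) and -0.36 (SE 0.31), with Erc2 at 204, 125 and 198 CPM in dorsal and 260.3, 179, 290.0 and 169 CPM in ventral controls. The sign of the Snap25 difference rested on ventral control 1, without which it was 0.12. Neuron markers were higher in dorsal control for 9 of 10 genes (median 0.24) and CA1 markers for 5 of 5 (median 1.54). Dentate granule markers were lower in dorsal control for 6 of 6 genes (median -1.03), CA3 markers for 5 of 5 (median -0.63) and choroid plexus markers for 5 of 5 (median -3.60). The CA3 list holds Lyz2, which may not mark CA3 cells alone. Over all libraries Lyz2 was highest in dorsal knockdown 3 (47.0 CPM), as was the microglia marker C1qa (208 CPM). The part of these markers in the member values was not tested. Without ventral control 4, the library rich in choroid plexus markers, the member median was 0.10.

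In the knockdown arm the regional estimates lay the other way, with 27 of 36 genes lower in dorsal hippocampus and a median of -0.13 against -0.01 over all tested genes. edgeR called 0 of all genes (0%), 317 (2.17%) fell under 0.05 before adjustment, and DESeq2 called 0 genes. Syt7, a sensor of slow and asynchronous release, was the single gene of the 36 (2.78%, against 1.74% of all genes, and 0.713% lower in dorsal hippocampus) whose groups did not overlap, at 368, 212, 329 and 406 CPM in dorsal and 485, 417 and 464 CPM in ventral knockdown, a log2 difference of -0.47 (SE 0.38, edgeR adjusted p = 1.00). Rph3a stood at 588, 367 and 267 CPM in ventral knockdown, above 3 of the 4 dorsal knockdown libraries, and differed by -0.88 (SE 0.38, edgeR unadjusted p = 0.0334, adjusted p = 1.00). The lowest estimates beside it were Syt2 at -1.13 (SE 0.67) and Syn3 at -0.75 (SE 0.45), with Syn3 at 29.8, 20.5, 44.9 and 50.1 CPM in dorsal and 104, 20.8 and 58 CPM in ventral knockdown.

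The highest regional estimates in the knockdown arm were Bsn at 0.53 (SE 0.63), Doc2b at 0.40 (SE 0.47) and Sv2b at 0.35 (SE 0.31). Doc2b stood at 103, 73.9, 158 and 34.7 CPM in dorsal knockdown. Sv2b stood at 740.2, 380.2, 332 and 452 CPM in dorsal and 307, 417 and 399 CPM in ventral knockdown. For Bsn, Doc2b and Sv2b the dorsal and ventral libraries overlapped, and the Bsn estimate was -0.03 without dorsal knockdown 1. Neuron markers were lower in 8 of 10 genes (median -0.13) and thalamus markers in 6 of 8 (median -0.46) in dorsal knockdown. Choroid plexus markers were higher there in 5 of 5 genes (median 1.72), summing to 81.0 to 269 CPM in dorsal and 41.9 to 56.8 CPM in ventral knockdown, with no overlap and with 1 marker at 0 in ventral knockdown. Microglia markers were higher in 6 of 6 genes (median 0.66), summing to 312 to 733 CPM in dorsal and 277 to 337 CPM in ventral knockdown. Oligodendrocyte markers were higher in 6 of 6 genes (median 0.44), summing to 4465 to 7550 CPM in dorsal and 2889 to 5235 CPM in ventral knockdown. Dentate granule markers were lower in 6 of 6 genes (median -0.79). The part of these markers in the member values was not tested. The member median was -0.05 without dorsal knockdown 3, -0.08 without ventral knockdown 2 and -0.25 without dorsal knockdown 1.

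**Figure D2:**
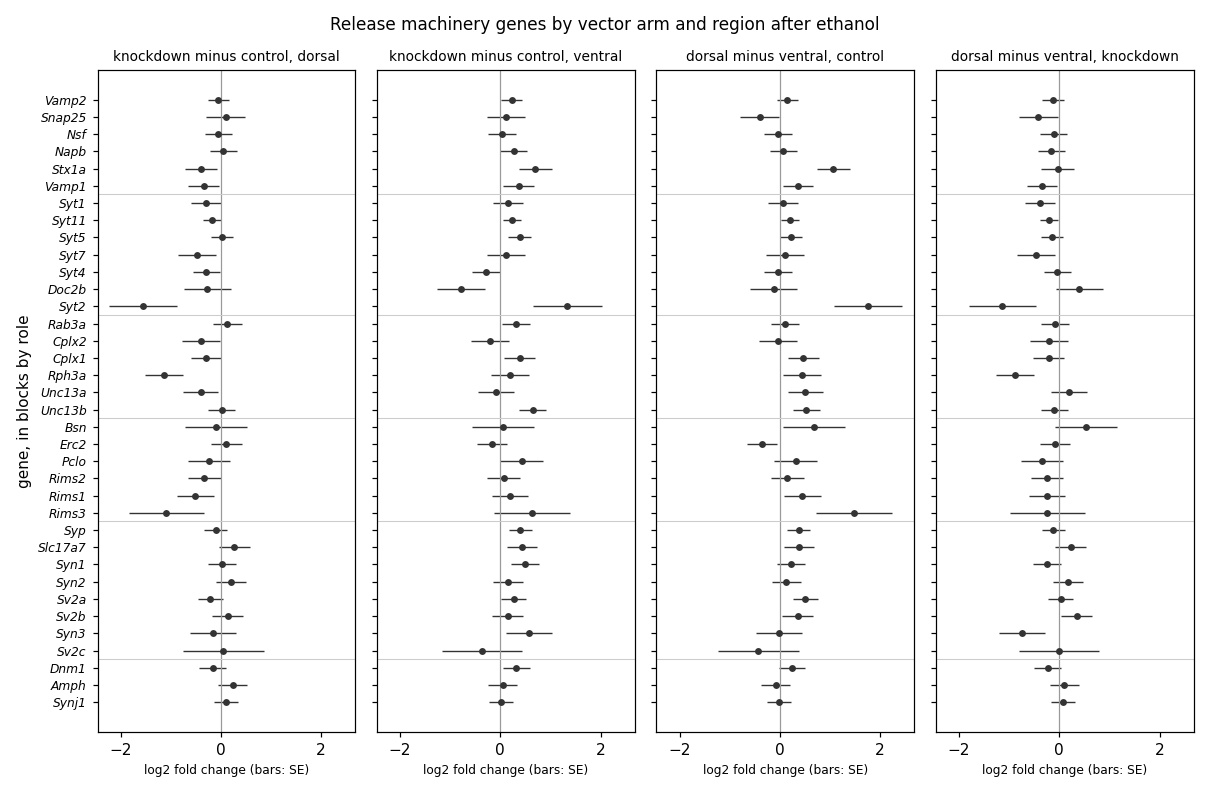
Log2 fold change of each of the 36 genes, with its standard error as a bar, in 4 comparisons: knockdown minus control in dorsal and in ventral hippocampus, and dorsal minus ventral in the control and in the knockdown arm. Dorsal knockdown and dorsal-minus-ventral knockdown estimates lie mostly below 0 (23 and 27 of 36 genes), the other comparisons mostly above 0 (30 and 26 of 36), and none of the genes was called.

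The share of gene reads taken by Rn45s varied within every group. It was 20.7%, 12.3% and 3.66% in dorsal control 1 to 3, 18.2%, 1.17%, 10.7% and 8.45% in dorsal knockdown 1 to 4, 0.625%, 4.61%, 12.6% and 10.7% in ventral control 1 to 4, and 3.49%, 1.08% and 17.4% in ventral knockdown 2 to 4. Rn45s itself was not called between arms (edgeR adjusted p = 0.999 in dorsal and 1.00 in ventral hippocampus).

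Against this share, 8 of the 36 genes (22.2%) were called, 6 rising and 2 falling, in a fit that also held the 4 group means. Over all 14577 tested genes 4311 (29.6%) were called, 1986 (13.6%) rising and 2325 (15.9%) falling, so the share among the release genes was not above that of all genes. The slope is the log2 change in level for each doubling of the Rn45s share, and its median was 0.00 over the 36 genes and over all tested genes. The 6 rising genes were the scaffold Bsn, the priming factors Unc13a and Unc13b, the calcium sensor Syt7 and the vesicle glycoproteins Sv2a and Sv2c. The 2 falling genes were the SNARE Snap25 and the GTPase Rab3a.

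Bsn rose most firmly. From the lowest to the highest Rn45s share within each group, it stood at 708, 488 and 1056 CPM in dorsal control, 165, 843, 415 and 1366 in dorsal knockdown, 157, 456, 472 and 779.5 in ventral control and 225, 519.9 and 700.3 in ventral knockdown. Its slope was 0.48 (SE 0.09, edgeR adjusted p = 0.00255). The 3 libraries with under 2% Rn45s held the 3 lowest Bsn values, and in every group the library with the largest share held the highest value.

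The priming factors rose less steeply. In the same order Unc13a stood at 473, 466 and 655 CPM in dorsal control, 177, 440.4, 434 and 556 in dorsal knockdown, 204, 350.4, 389 and 547 in ventral control and 337, 357 and 362 in ventral knockdown, with a slope of 0.24 (SE 0.06, edgeR adjusted p = 0.00721). Unc13b stood at 65.1, 72.5 and 67.1 CPM in dorsal control, 42.8, 74.5, 69.1 and 89.7 in dorsal knockdown, 37.3, 53.5, 52.5 and 45.5 in ventral control and 45.9, 75.9 and 99.2 in ventral knockdown, with a slope of 0.18 (SE 0.04, edgeR adjusted p = 0.00698). In dorsal knockdown and in both ventral groups the library with the lowest share was also the lowest for both genes.

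Syt7 stood at 375, 431 and 563 CPM in dorsal control, 212, 406, 329 and 368 in dorsal knockdown, 183, 302, 428 and 777 in ventral control and 417, 485 and 464 in ventral knockdown from low to high share, with a slope of 0.25 (SE 0.07, edgeR adjusted p = 0.013). Sv2a stood at 472, 445 and 424 CPM in dorsal control, 258, 505, 353 and 428 in dorsal knockdown, 220.3, 344, 331 and 359.6 in ventral control and 327, 343 and 461 in ventral knockdown, with a slope of 0.14 (SE 0.04, edgeR adjusted p = 0.0316). Sv2c, at a low level, stood at 7.56, 15.3 and 12 CPM in dorsal control, 4.84, 12.3, 17.3 and 13.6 in dorsal knockdown, 1.44, 23.2, 11.3 and 26.4 in ventral control and 1.14, 21.3 and 13.9 in ventral knockdown, with the steepest slope of the 36 genes, 0.57 (SE 0.18, edgeR adjusted p = 0.0285). The Sv2c values under 2 CPM came from ventral control 1 and ventral knockdown 3, both with little Rn45s.

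The falling genes are both abundant. Snap25 stood at 1765, 1868 and 1969 CPM in dorsal control, 2430, 1851, 1531 and 2154 in dorsal knockdown, 4753, 2074, 1422 and 1618 in ventral control and 3209, 3193 and 1574 in ventral knockdown from low to high share, a slope of -0.23 (SE 0.06, edgeR adjusted p = 0.0103). The highest Snap25 value was that of ventral control 1, the library with the lowest share. Rab3a stood at 587, 452 and 459 CPM in dorsal control, 703, 486, 439 and 559.6 in dorsal knockdown, 641, 482, 329 and 405 in ventral control and 816, 456 and 462 in ventral knockdown, a slope of -0.17 (SE 0.04, edgeR adjusted p = 0.0084). In every group Rab3a was highest in the library with the lowest share.

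The next slope below these was that of Syt4 at -0.12 (SE 0.05, edgeR adjusted p = 0.0911). Rims3 followed Sv2c and Bsn at 0.38 (SE 0.18, edgeR adjusted p = 0.129). Neither Syt4 nor Rims3 reached the threshold. Rims3 passed in a fit without the group means (0.50, edgeR adjusted p = 0.0364). That fit also took in the library labelled knockdown of total hippocampus, which held the highest Rims3 level, 35.9 CPM. From low to high share Syt4 stood at 157, 171 and 99.5 CPM in dorsal control, 132, 126, 95.5 and 114 in dorsal knockdown, 236, 131, 109 and 112 in ventral control and 113, 112 and 135 in ventral knockdown. Rims3 stood at 15.5, 33.8 and 21.3 CPM in dorsal control, 5.13, 26.6, 2.83 and 10.2 in dorsal knockdown, 4.15, 16.1, 8.22 and 5.97 in ventral control and 2.17, 12.8 and 24.3 in ventral knockdown. In every group the libraries highest for Rims3 were not those with the least Rn45s.

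**Figure D3:**
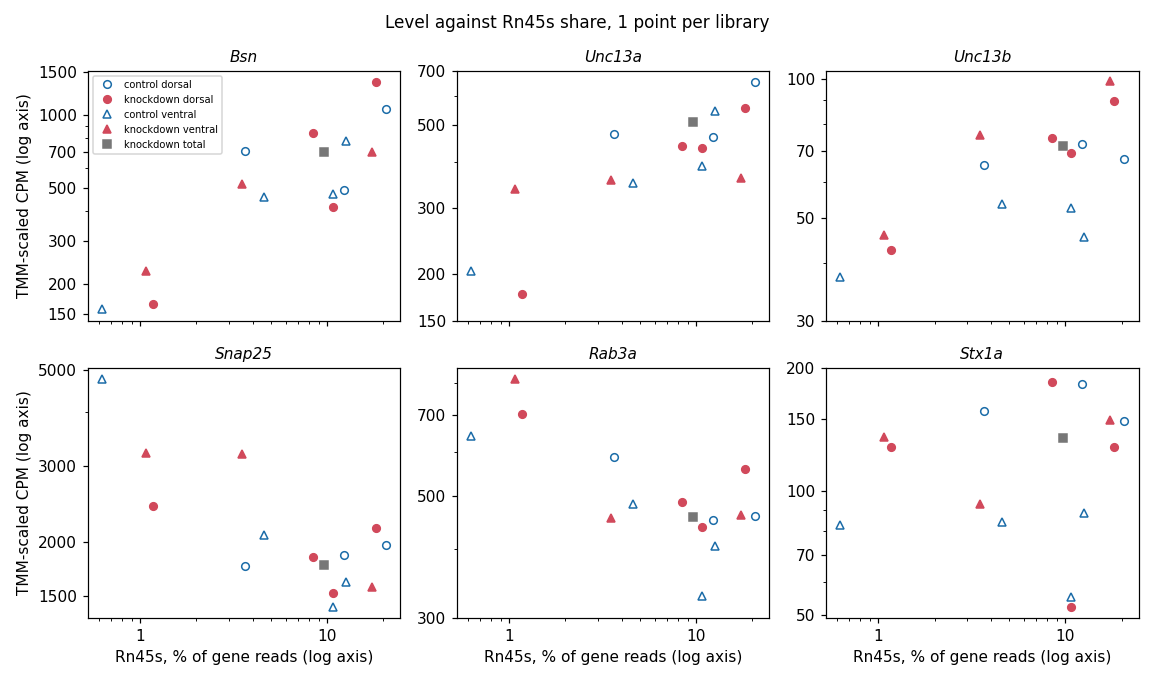
Level of 6 genes in TMM-scaled CPM against the Rn45s percentage of gene reads (both log axes), 1 point per library, with colour for the vector arm and shape for the region. Bsn, Unc13a and Unc13b are low in the 3 libraries with under 2% Rn45s, Snap25 and Rab3a are high there, and Stx1a, with a slope of -0.01, shows no such order.

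The calls depended on single libraries. Without ventral control 1, which had the lowest Rn45s share, 1962 of all genes and 2 of the 36, Bsn and Unc13b, were called, and the slope of Snap25 was -0.14 with an adjusted p of 0.166 by edgeR. Without dorsal knockdown 1, 13 of the 36 were called, Cplx1, Nsf, Syn3, Syt1 and Vamp2 being added to the 8. The number of all genes called also changed with the library left out and is not set beside the 13 here. Whether 13 of 36 lies above the share of all genes in that fit therefore cannot be told. This gain was not read as particular to the release genes. Without dorsal knockdown 2, with 1.17% Rn45s, 2368 of all genes and 6 of the 36 were called, Sv2a and Sv2c being lost, as they were without ventral control 3. The Sv2a call was also lost without ventral knockdown 4 and without the filter on low counts.

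By role, all 6 SNARE genes had slopes below 0 (median -0.08), whereas 5 of 6 active zone genes (median 0.18) and 4 of 6 priming genes (median 0.15) had slopes above 0. Calcium sensors were split, with 4 above and 3 below 0. Of the vesicle membrane genes 6 of 8 had slopes above 0 (median 0.04), and of the endocytosis genes 1 of 3 (median -0.035). The mean of the active zone genes, as log2 CPM relative to each gene's own mean, was -0.38 in ventral control 1, -0.99 in ventral knockdown 3 and -0.90 in dorsal knockdown 2, the 3 libraries with the least Rn45s. The same mean was 0.57 and 0.55 in dorsal knockdown 1 and dorsal control 1, with the most Rn45s. It was -0.71 in dorsal knockdown 3, with 10.7% Rn45s, and 0.48 in ventral knockdown 2, with 3.49%, so the order was not the same in every library. For the SNARE genes the first 3 libraries gave 0.33, 0.29 and 0.13 and the last 2 gave 0.27 and 0.11. Over all 36 genes the mean score was -0.22, -0.18 and -0.36 in the first 3 libraries, against a pooled SD within groups of 0.24. The lowest score was -0.38 in dorsal knockdown 3, and ventral control 4 had -0.35, both at 10.7% Rn45s, so low scores were not limited to libraries with a low share.

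**Figure D4:**
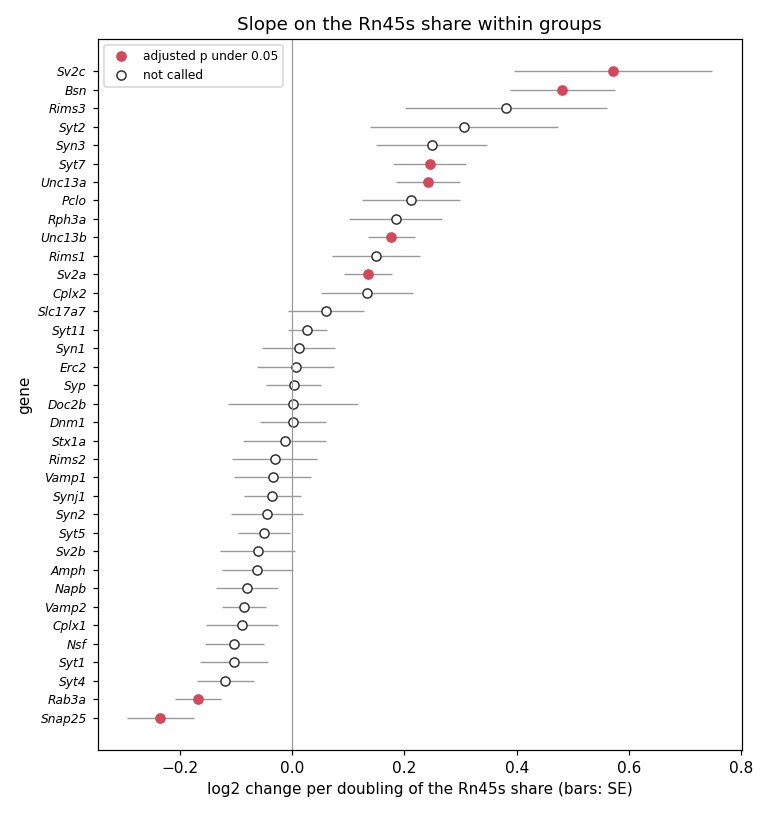
Slope of each of the 36 genes on the Rn45s share, as log2 change per doubling of the share, with its standard error as a bar and genes sorted by slope. Filled points mark the 8 called genes, from Snap25 at -0.23 to Sv2c at 0.57.

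Of the 56 other release and recycling genes, 20 (35.7%) were called on the same slope, 10 rising and 10 falling, against the 29.6% of all genes. Named after their values were seen, the rising ones included the calcium channel genes Cacna1a at 0.35 (SE 0.06, edgeR adjusted p = 0.00119) and Cacna1b at 0.18 (SE 0.05, adjusted p = 0.0203), the RIM gene Rims4 at 0.52 (SE 0.12, adjusted p = 0.00558) and the liprin gene Ppfia3 at 0.25 (SE 0.05, adjusted p = 0.003375). The falling ones included the SNARE genes Vamp7 at -0.29 (SE 0.04, edgeR adjusted p = 4.56e-04) and Snap47 at -0.14 (SE 0.03, adjusted p = 0.00944). These names are a pick from the 20 called and cannot show a pattern by role.

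Slopes ran with transcript length, a property looked at after the slopes had been seen. Bsn, Unc13a, Unc13b and Sv2c have longest transcripts of 15938, 10255, 14754 and 9101 bases, and Rab3a has 1556. The others called were closer together, at 6624 bases for Syt7, 4334 for Sv2a and 4880 for Snap25. All 5 release genes with transcripts of 7500 bases or more had a slope above 0 (median 0.24), Pclo being the fifth. None of the 5 genes under 2500 bases had one (median -0.09), and the 17 genes from 2500 to under 5000 bases and the 9 from 5000 to under 7500 bases lay between, with medians of 0.00 and 0.03. Over the 36 genes the Spearman correlation of slope with length was 0.60, and 0.43 without the 5 longest.

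The same order appeared across all tested protein-coding genes, so it was not particular to the release machinery. Of 1080 such genes with transcripts of 7500 bases or more, 86.6% had a slope above 0, and of 3808 genes under 2500 bases 29.7% had one, with a Spearman correlation of 0.43 over 13602 genes. Over 55 other release and recycling genes the correlation was 0.42. Of these, 7 of 12 at 7500 bases or more had a slope above 0 (58.3%, median 0.04), and 0 of 7 under 2500 bases. GC content of the transcript gave 0.25 over the 36 genes and 0.39 over the protein-coding genes. Mean level gave -0.42 over the 36 genes and -0.01 over the protein-coding genes. These are correlations across genes, which share libraries and are not independent replicates, and they are given without a test.

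**Figure D5:**
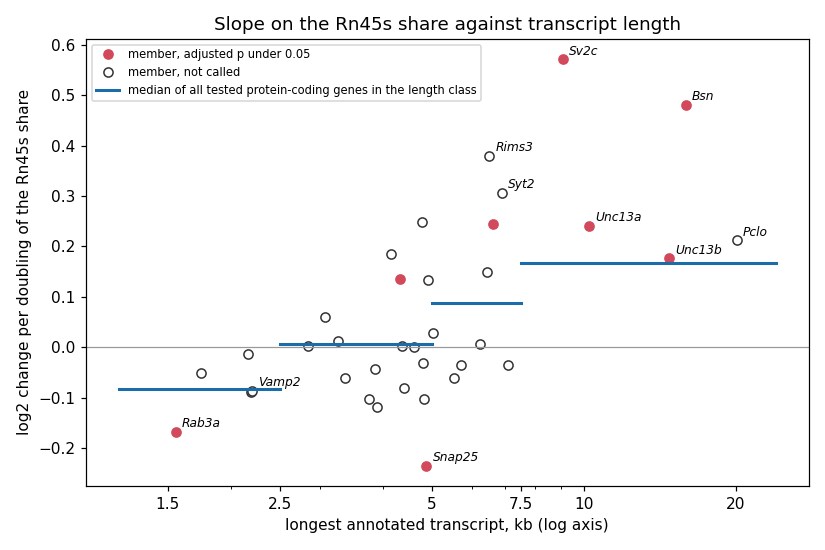
Slope on the Rn45s share (log2 change per doubling) against the length of the longest annotated transcript in kb (log axis) for the 36 genes; filled points mark called genes, and horizontal lines give the median slope of all tested protein-coding genes in each of 4 length classes. The class medians run from -0.08 under 2.5 kb to 0.17 at 7.5 kb and above, and the members' medians in the same classes run from -0.09 to 0.24.

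The sequences before the starts of 4 of these genes are shown because Syn1 is a textbook target of the neuronal repressor REST and because Bsn and Unc13a rose while Rab3a fell with the Rn45s share. They are from RefSeq (GRCm38.p6), read 5′ to 3′ on the strand of the gene, and hold the part of the 250 bases before the start that lies in no annotated exon. Capitals mark TTCAGCACC, the left arm of the REST site, in Syn1 (chrX:20921005-20921168, minus strand), and the GC box GGGCGG or its reverse complement CCGCCC in Unc13a (chr8:71671758-71672007, minus strand) and Rab3a (chr8:70754453-70754678, plus strand). The Bsn window (chr9:108190385-108190530, minus strand) holds neither motif and so has no capitals.
Syn1: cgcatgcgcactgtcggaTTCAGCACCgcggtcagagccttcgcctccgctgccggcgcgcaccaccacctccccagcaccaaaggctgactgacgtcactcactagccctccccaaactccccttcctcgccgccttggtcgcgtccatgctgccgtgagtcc
Bsn: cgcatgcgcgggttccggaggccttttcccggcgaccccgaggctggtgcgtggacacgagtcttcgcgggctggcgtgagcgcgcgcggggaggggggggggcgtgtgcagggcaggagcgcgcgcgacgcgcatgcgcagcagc
Unc13a: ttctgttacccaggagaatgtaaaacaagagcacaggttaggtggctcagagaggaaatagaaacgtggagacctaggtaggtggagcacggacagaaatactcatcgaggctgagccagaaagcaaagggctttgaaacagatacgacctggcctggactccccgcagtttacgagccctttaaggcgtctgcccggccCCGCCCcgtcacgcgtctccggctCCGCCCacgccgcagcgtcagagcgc
Rab3a: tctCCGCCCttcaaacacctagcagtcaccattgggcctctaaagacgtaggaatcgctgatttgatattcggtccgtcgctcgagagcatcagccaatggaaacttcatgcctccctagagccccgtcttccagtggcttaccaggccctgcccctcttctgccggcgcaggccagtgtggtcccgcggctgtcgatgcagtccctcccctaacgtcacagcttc

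Windows of 250 bases were found for 28 of the 36 genes, and motifs were searched on both strands. GGGCGG occurred in 19 of the 28 (67.9%), against 35.4% of 27025 genes, where the median GC content was 61.0% in the members' windows and 52.4% in all windows. Unc13a and Rab3a each had it, and the Bsn window had 0 matches at a GC content of 71.6%. TTCAGCACC occurred in Syn1 alone of the 28, against 0.348% of all genes. The full cyclic AMP response element TGACGTCA occurred in Syn1 (3.57% of the 28, against 1.77% of genes), and TATAAA in Sv2b (3.57% against 14.3%). The E-box CACGTG occurred in Nsf, Sv2b and Unc13b (10.7% against 6.86%). The shared core TGACG, which TGACGTCA contains, occurred in 6 of the 28 (21.4% against 19.8%). These matches are descriptions of letters in the windows.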

How the data were processed

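RNA-seq of 21 mouse hippocampus libraries was used. The unit is the raw read count per gene, as the authors deposited it for 24498 genes; 5 summary lines were left out. The tools named are HTSeq 0.6.1p1 and STAR 2.5.2a, and the build is mm10, per the submitters' processing notes. The annotation and strand setting were not given in the sources used here. Groups came from the sample titles. The members and lists were chosen with earlier results of these data known.

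Counts of 14 libraries with over 1000000 gene reads were fitted with 4 group means by edgeR 4.0.16 in R 4.3.3 (filterByExpr, minimum count 10, TMM scaling, robust quasi-likelihood F-test, Benjamini-Hochberg adjustment over 14578 genes, threshold 0.05). The slope fit added log2 of the Rn45s share and left out Rn45s. Standard errors were derived from F, and p-values reflect the spread among these libraries alone, which may be technical. Scores used log2 CPM with a prior count of 1. Every member may be named; values in each library were given for members called, for the 3 highest and 3 lowest per comparison and for the highest per kb in each role. Positions and lengths are from GENCODE M21 (GRCm38, the same build as mm10). Simulated counts were used to test the fits. Alternatives were RLE scaling, no filter, a replicate block, only the groups compared, all 20 dorsal and ventral libraries, DESeq2 1.42.0, leaving out each library, removing Rn45s, the Rn45s share as a covariate and, for the slope, no group terms. The fit without group terms also held the library of total hippocampus.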

Additional observations from a re-analysis of the deposited data

Results flagged for a closer look

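In dorsal knockdown and ventral control, the groups of 4 libraries, 76 sets of values were examined for 1 library far from the rest. Of these, 2 were singled out. The sets covered the 36 genes, the member score and the Rn45s share. They come from the same libraries and are not independent, so their number was not set against chance. Groups of 3 libraries were not examined. Syt1 in ventral control was one: ventral control 1 stood at 2259 CPM and the other 3 libraries at 1049 to 1238 CPM, so the gap to the nearest library was 0.844 of the whole range. Syt2 in ventral control was the other: ventral control 2 stood at 18.1 CPM and the other 3 at 4.06 to 5.59 CPM, a gap of 0.891 of the range. Ventral control 1 also had the lowest Rn45s share, 0.625%, and the part of that share in its Syt1 level was not tested.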

How the results depend on the processing

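No member was called in any of the 6 comparisons of arm and region under any alternative run. DESeq2 called 6 genes for dorsal knockdown, 34 for ventral knockdown, 3 for the mean of both, 12 for region in control and 7 for the difference of knockdown effects. With all 20 libraries 1 gene was called for ventral knockdown and 1 for the difference of effects, and with the Rn45s covariate 1 for ventral knockdown. Leaving out each library gave 0 to 8 called genes for ventral knockdown, 0 to 2 for the mean, 0 to 6 for region in control and 0 to 2 for the difference, the highest without ventral control 1, except the difference, without ventral knockdown 3. For the slope it gave 1962 to 4593 genes and 2 to 13 members.

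The member medians moved by less than the 0.24 SD of the member score in each alternative. All of them except that of the difference of effects were smaller than this SD, so the bound says little about their stability. Over left-out libraries the dorsal knockdown median ran from -0.26 to -0.04. That of the mean effect, 0.04, ran from -0.04 to 0.09 over left-out libraries and was -0.06 with all 20 libraries. Over left-out libraries, single members that changed sign ran from -0.013 (without dorsal knockdown 1) to 0.39 for Syn2 in dorsal knockdown, from -1.05 to 0.18 (without ventral knockdown 3) for Sv2c and from -0.41 to 0.028 (without ventral control 1) for Syt4 in ventral knockdown, from -0.59 to 0.12 (without ventral control 1) for Snap25 by region in control, and from -0.034 (without dorsal knockdown 1) to 0.91 for Bsn by region in knockdown. In the difference of effects they ran from -0.019 (without dorsal knockdown 1) to 0.48 for Erc2 and from -0.12 (without ventral knockdown 3) to 1.11 for Sv2c. Snap25 by region in control was 0.043 with the Rn45s covariate. The cause was not tested.

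Libraries with equal replicate numbers were by median no more alike than others. Over 18 such pairs the correlation of their deviations had a median of 0.00 and ran from -0.22 to 0.37. Over 55 pairs with unequal numbers the median was also 0.00, with a range from -0.45 to 0.60. Most of the 18 pairs join different arms rather than dorsal and ventral hippocampus of the same arm. The dorsal and ventral pairs of the control arm gave -0.16, 0.09 and -0.04 for replicates 1 to 3. Those of the knockdown arm gave -0.14, -0.08 and 0.37 for replicates 2 to 4. Whether regions came from the same animal cannot be told from these values. With the replicate number as a block, the slope fit called 2834 genes and 8 members, losing Sv2a and gaining Syt2, and the other comparisons still called 0 genes. Groups of 3 and 4 libraries limit what could be called.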

Other observations

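The single library labelled knockdown of total hippocampus entered no comparison of arm or region, and of the slope fits only that without group means. Its Acss2 level was 57.9 CPM, within the control range of 47.4 to 58.6 CPM, which goes against its label. It held the highest level of 4 of the 36 genes over the 15 libraries: Syt2 at 59.6 CPM, Rims3 at 35.9 CPM, Vamp1 at 188 CPM and Sv2a at 527 CPM. Its other abundant members lay within the range of the dorsal and ventral libraries, with Snap25 at 1774 CPM, Syp at 1175 CPM and Slc17a7 at 1141 CPM. Its Rn45s share was 9.68% and its mean member score 0.23, and with 1 library its differences have no replicate check.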
